A study of Homo sapiens with 8 samples.

Results

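Divergent promoters are stretches of DNA from which 2 protein-coding genes are transcribed away from each other, head to head on opposite strands. The regions described here were chosen by position alone, from GENCODE 44 on GRCh38. A pair was taken when the transcription start site (TSS) of the canonical transcript of a minus-strand gene lay at most 1000 bp to the left of that of a plus-strand gene on chromosomes 1-22. This gave 957 pairs at 886 separate places, with 1842 of 19111 protein-coding genes (9.64%), of which 71 stood in more than 1 pair. Their members in the data were the peaks that overlapped the span between both TSSs or the 300 bp beyond either one, and there were 1065 of them among 60628 peaks (1.76%). The distance between paired TSSs ranged from 11 to 1000 bp, with a median of 233 bp and quartiles of 121 and 401 bp.

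The study performed bulk ATAC-seq, in which the Tn5 transposase cuts accessible chromatin, on 8 libraries of HepG2, a human hepatoblastoma-derived liver cell line. The values here come from the peak list of 1 library, whose cells were fixed with 0.1% formaldehyde (FA) and then cryopreserved, and the remaining libraries were not used here. This library had no replicate here, so no test between samples was possible, and the intervals given with shares and medians are exact 95% intervals that cover counting error only. No transcripts were measured in these files, so the activity of the genes is not known from them, and a canonical TSS is not always the TSS that a cell line uses. Each peak carries the fold enrichment of its summit over the local background and a -log10 q from the authors' peak calling. The fold is taken to have 1 added to both the summit and the background, which holds it down at peaks on few fragments. The number of fragments over the summit was solved from the deposited values and gives the depth behind each peak: the members rested on 6 to 228 summit fragments, with a median of 50.

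A promoter holds the short sequences at which general and gene-specific factors assemble RNA polymerase II, usually inside a nucleosome-free stretch. Promoters rich in CpG often start transcription in both directions. At a head-to-head pair of coding genes, 1 such stretch can serve both genes or each gene can have its own. Such pairs are known in mammalian genomes for genes of DNA repair, chaperones, mitochondrial proteins and the core histones. Factors known to bind these promoters include NFY at CCAAT boxes, ETS factors such as GABPA, and NRF1, while a TATA box is uncommon at them.

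The whole span between both TSSs is shown for 9 pairs that held a motif word described below and in which no exon is annotated. Each is written 5′ to 3′ along the plus strand of GRCh38 (hg38), from the base after the TSS of the minus-strand gene to the base before that of the plus-strand gene. Capitals mark the words named for each pair. An SP/KLF word in the span of KARS1/TERF2IP and another in that of XPO5/POLH are left in lower case. In the spans of MMUT/CENPQ (chr6:49463254-49463369) and SARS2/MRPS12 (chr19:38930764-38930943) they mark NFY words. They mark the ETS word in KARS1/TERF2IP (chr16:75647666-75647772) and EMC7/PGBD4 (chr15:34101863-34102082) and the NRF1 word in XPO5/POLH (chr6:43576039-43576184), a pair chosen after its values were seen. In MRPL50/ZNF189 (chr9:101398619-101398850) they mark an NFY and an SP/KLF word.
MMUT/CENPQ: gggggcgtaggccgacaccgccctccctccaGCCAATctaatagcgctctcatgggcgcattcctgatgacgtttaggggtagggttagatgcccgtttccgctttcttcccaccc
SARS2/MRPS12: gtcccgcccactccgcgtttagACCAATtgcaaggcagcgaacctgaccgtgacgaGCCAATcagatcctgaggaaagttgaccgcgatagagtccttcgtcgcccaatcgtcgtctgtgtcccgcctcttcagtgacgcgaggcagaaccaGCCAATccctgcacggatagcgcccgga
KARS1/TERF2IP: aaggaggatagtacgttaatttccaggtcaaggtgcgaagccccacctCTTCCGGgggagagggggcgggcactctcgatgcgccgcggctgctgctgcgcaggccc
EMC7/PGBD4: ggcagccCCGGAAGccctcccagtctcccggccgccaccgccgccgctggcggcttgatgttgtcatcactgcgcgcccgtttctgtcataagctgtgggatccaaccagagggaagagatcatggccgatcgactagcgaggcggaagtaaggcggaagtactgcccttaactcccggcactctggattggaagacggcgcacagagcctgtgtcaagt
XPO5/POLH: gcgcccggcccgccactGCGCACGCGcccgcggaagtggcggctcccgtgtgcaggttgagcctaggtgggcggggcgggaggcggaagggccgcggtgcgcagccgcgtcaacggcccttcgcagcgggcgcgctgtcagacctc
MRPL50/ZNF189: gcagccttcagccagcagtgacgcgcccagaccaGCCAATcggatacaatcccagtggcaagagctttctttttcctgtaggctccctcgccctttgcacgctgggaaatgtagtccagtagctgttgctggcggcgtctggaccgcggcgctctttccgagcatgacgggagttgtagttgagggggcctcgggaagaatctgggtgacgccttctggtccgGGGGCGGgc
The other 3 are histone pairs, in which capitals mark NFY words and the TATA box: H2AC17/H2BC17 (chr6:27893186-27893424), H2BC8/H2AC8 (chr6:26216689-26216920) and H2AC1/H2BC1 (chr6:25726563-25726776), the last of which had no peak.
H2AC17/H2BC17: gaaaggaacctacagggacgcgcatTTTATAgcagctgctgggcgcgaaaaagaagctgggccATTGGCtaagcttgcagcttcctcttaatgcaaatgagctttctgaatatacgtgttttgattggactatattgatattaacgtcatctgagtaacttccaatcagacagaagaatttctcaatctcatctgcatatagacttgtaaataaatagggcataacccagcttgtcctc
H2BC8/H2AC8: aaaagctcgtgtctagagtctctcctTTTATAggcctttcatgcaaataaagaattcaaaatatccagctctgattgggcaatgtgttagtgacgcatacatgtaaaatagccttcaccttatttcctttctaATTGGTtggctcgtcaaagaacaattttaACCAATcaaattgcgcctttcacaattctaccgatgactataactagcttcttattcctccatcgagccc
H2AC1/H2BC1: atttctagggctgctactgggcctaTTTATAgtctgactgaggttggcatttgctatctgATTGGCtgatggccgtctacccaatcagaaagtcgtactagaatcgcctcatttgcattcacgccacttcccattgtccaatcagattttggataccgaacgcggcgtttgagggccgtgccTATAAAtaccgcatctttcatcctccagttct
At each of the 6 pairs listed before the histones, 1 peak covered the span and both TSSs. MMUT encodes the mitochondrial enzyme methylmalonyl-CoA mutase and CENPQ a centromere protein, and the fold enrichment of their shared peak was 35.6 over 102 fragments. KARS1 encodes lysyl-tRNA synthetase and TERF2IP a telomere protein, with a fold of 29.6. SARS2 and MRPS12 encode the seryl-tRNA synthetase and a ribosomal protein of mitochondria, with a fold of 26.2. EMC7, a subunit of the membrane protein insertion complex of the endoplasmic reticulum, and the transposase-derived PGBD4 shared a peak with a fold of 29.9. XPO5, the exporter of microRNA precursors, and POLH, a translesion DNA polymerase, shared a peak with a fold of 28.6.

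Nearly all pairs had a peak. Of the 957 pairs, 918 (95.9%, interval 94.5 to 97.1%) had at least 1 member peak, 699 of them exactly 1, 203 had 2 and 16 had 3, and 39 had none. For a comparison by the same window, each TSS was given the 300 bp to either side. A peak lay there at 1712 of 1842 paired TSSs (92.9%, interval 91.7 to 94.1%). Of the 16376 single TSSs, which have no other protein-coding TSS within 1000 bp, 8903 had one (54.4%, interval 53.6 to 55.1%), and of all protein-coding TSSs 58.9% did. Since the window of a paired TSS can hold the peak of its neighbour, the base of the TSS itself was also compared. It lay under a peak at 85.5% of paired and 48.2% of single TSSs. Both TSSs of a pair often share 1 peak and are not independent counts, so the interval of the paired TSSs is too narrow.

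Single TSSs that stood head to head with the TSS of a long noncoding RNA (lncRNA) gene lay between both. Of these 1741 TSSs, 80.1% (interval 78.1 to 81.9%) had a peak, against 51.3% of the 14635 single TSSs without such a neighbour. The 893 TSSs that were near another coding TSS but in no head-to-head pair had a peak at 71.2%. All of these intervals were separate from that of the paired TSSs.

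The median GC content over the 250 bp to either side was close, 64.7% for paired and 64.9% for single TSSs, but its spread was not: 0.651% of paired and 10.4% of single TSSs lay below 45% GC, and 42.9% and 27.4% between 55 and 65%. The shares were therefore also compared within classes of GC content. Between 45 and 55% GC, 84.0% of 163 paired TSSs had a peak (interval 77.5 to 89.3%) and 22.3% of 2096 single ones (interval 20.6 to 24.2%). Between 55 and 65% GC the shares were 93.8% and 54.1%, and from 65% GC upwards 94.7% and 72.7%. Below 45% GC the class held only 12 paired TSSs, of which 25.0% had a peak (interval 5.49 to 57.2%), against 6.95% of 1697 single TSSs (interval 5.79 to 8.27%), and these intervals overlapped. The share thus varied from 84.0 to 94.7% for paired and from 22.3 to 72.7% for single TSSs over the 3 upper GC classes.

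**Figure D1:**
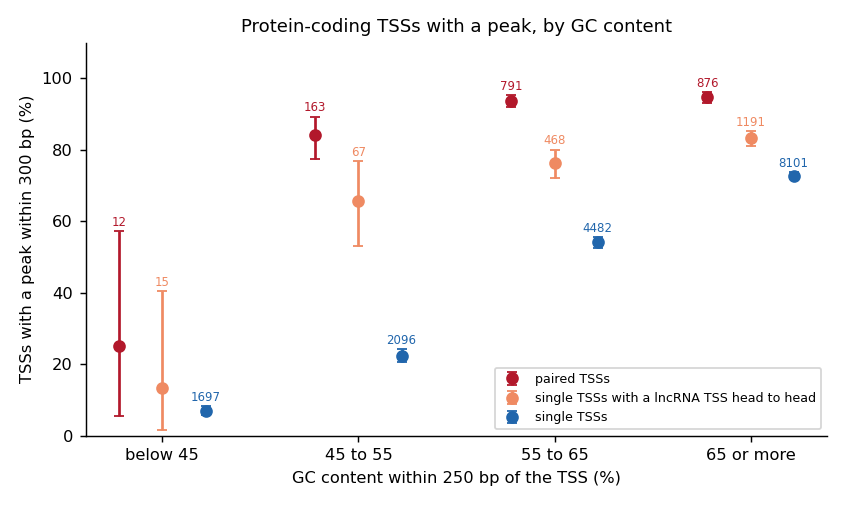
Share of protein-coding TSSs with a peak within 300 bp (y axis, %) by the GC content within 250 bp of the TSS (x axis, %), for paired TSSs, all single TSSs and the single TSSs head to head with a lncRNA TSS. Points are shares, bars exact 95% intervals and numbers the TSSs in each class; paired TSSs stay above 80% from 45% GC upwards, while single TSSs go from 22.3 to 72.7%.

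The distance between the TSSs changed the form of the signal more than its presence. The share of pairs with a peak was 94.6% at 1 to 100 bp, 94.3% at over 100 to 200 bp, 97.0% at over 200 to 300 bp, 98.3% at over 300 to 500 bp and 95.8% at over 500 to 1000 bp, with overlapping intervals. Both TSSs lay under the same peak at 620 of the 918 pairs with a peak (67.5%, interval 64.4 to 70.6%). This share was 98.3% at 1 to 100 bp (interval 95.0 to 99.6%) and fell to 93.5% at over 100 to 200 bp, 77.0% at over 200 to 300 bp, 46.6% at over 300 to 500 bp and 11.8% (interval 7.26 to 17.8%) at over 500 to 1000 bp. Some fall with distance is fixed by the widths, since the lower and upper quartiles of the members' widths were 205 and 389 bp.
At another 125 pairs both TSSs lay under a peak each. At 74 pairs the peak covered the minus-strand TSS only and at 73 the plus-strand TSS only. At 26 pairs the peak of the region covered neither TSS.

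**Figure D2:**
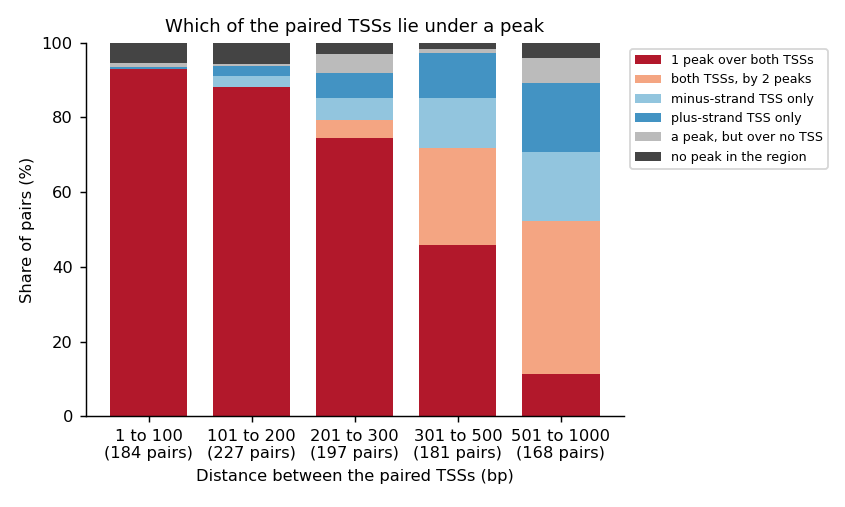
Share of divergent pairs (y axis, %) by which of their TSSs lay under a peak, for classes of the distance between the TSSs (x axis, bp; number of pairs in brackets). Pairs with 1 peak over both TSSs make up most of the bars up to 300 bp, and those with a peak at each TSS appear above 200 bp.

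Where a pair had 2 peaks, each TSS lay under a peak of its own at 110 of 203 pairs. The 203 pairs had TSSs a median of 395 bp apart. Their summits were a median of 397 bp apart (quartiles 342 and 543 bp), and the gap between the edges of both peaks had a median of 170 bp. At 166 of them (81.8%) each summit was nearest to the TSS of a different gene of the pair. This includes pairs with a summit inside a gene. It only asks for a summit on each side of the middle of the pair, so part of this share is fixed by the spacing of the peaks. The higher fold of the 2 peaks was a median of 1.85 times the lower. It stood on the minus-strand side at 91 pairs and on the plus-strand side at 111.

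The summit of the strongest peak, meaning the peak with the highest fold of a pair, lay between both TSSs at 765 of 918 pairs (83.3%, interval 80.8 to 85.7%). At 1 to 100 bp this share was 62.6%, and at over 100 to 1000 bp it was between 86.9 and 90.4%. The summit lay farther from the middle for TSSs farther apart, some of which is fixed by the length of the span. Its median distance from the middle was 22.3 bp for TSSs 1 to 100 bp apart, 21.8 bp at over 100 to 200 bp and 38.5 bp at over 200 to 300 bp, against 125 bp at over 300 to 500 bp and 265 bp at over 500 to 1000 bp. Measured from the nearer TSS towards the other gene, the summit had a median position of 9 bp at 1 to 100 bp and 50 bp at over 100 to 200 bp. This median was 82 bp at over 200 to 300 bp, 74 bp at over 300 to 500 bp and 84 bp at over 500 to 1000 bp. Summits outside the span counted as negative, so these medians are lower than plain distances would be. For a summit between both TSSs, the length of the span limits this value too. At single TSSs the summit of the strongest peak lay a median of 67 bp upstream (quartiles 28 and 113 bp), and 86.3% of these summits were upstream of the TSS.

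Counting each of the 1065 members once, 827 summits (77.7%) lay between the TSSs, 139 in the minus-strand gene and 99 in the plus-strand gene. Of those between the TSSs, 346 lay in an exon of another annotated transcript of the pair, and 481 in no exon of either gene. Of the 238 others, 160 lay in an exon of a paired gene outside its coding sequence, 53 in an intron and 25 in coding sequence.

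**Figure D3:**
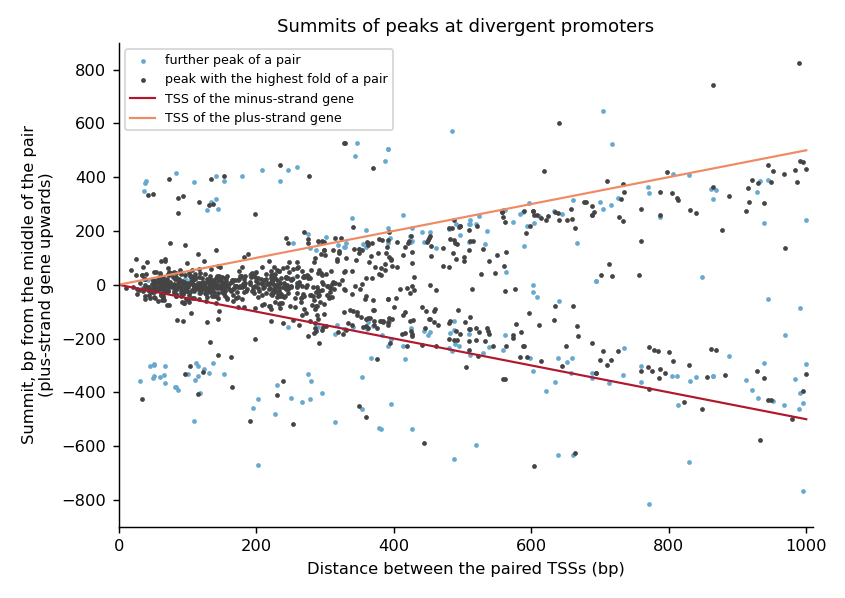
Summits of the peaks at each divergent pair (points; y axis, bp from the middle of the pair, plus-strand gene upwards) by the distance between the TSSs (x axis, bp), with lines at both TSSs. Summits lie close together for the nearest TSSs, where 62.6% of the strongest are between both, and above 300 bp they follow both TSS lines, mostly on their inner side.

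Well-known pairs covered this whole range. Of 21 pairs described in textbooks and reviews that the rule found, 20 had a peak, with a fold of 5.95 to 32.2. RARS2/ORC3, the mitochondrial arginyl-tRNA synthetase and a subunit of the origin recognition complex, had the highest, 32.2 over 88 fragments. The pair NPAT/ATM joins a regulator of histone genes and the kinase of the DNA damage response. Its TSSs are 429 bp apart on chromosome 11 and lay under 1 peak from 108222585 to 108223098, with a fold of 22.6 over 96 fragments.
ZAR1L/BRCA2, the latter a gene of homologous recombination, are 145 bp apart and shared a peak of 218 bp with a fold of 18.9 over 31 fragments. HSPD1/HSPE1, which encode the mitochondrial chaperonin and its co-chaperonin, are 539 bp apart, and a peak of 616 bp covered both TSSs with a fold of 20.9 over 136 fragments. Its summit lay 87 bp from the TSS of HSPD1 and 452 bp from that of HSPE1.

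Other known pairs had a peak at each gene. PPAT and PAICS encode enzymes of purine synthesis, and their TSSs 645 bp apart had a fold of 12.7 on the PPAT side and 10.1 on the PAICS side. TAP1, the peptide transporter of antigen presentation, and PSMB9, an immunoproteasome subunit, are 488 bp apart, with a fold of 9.55 on the TAP1 side and 26.4 on the PSMB9 side. GART, another purine synthesis enzyme, and SON, a splicing cofactor, had 14.2 and 26.4 at a distance of 921 bp. PDCD10 and SERPINI1 had 3 peaks, with a fold of 21.9 beside PDCD10, 9.53 beside SERPINI1 and 4.88 inside PDCD10.
At UFD1/CDC45, 727 bp apart, the peak with a fold of 22.7 covered only the TSS of CDC45, a replication factor. SIRT3/PSMD13 had 9.63 beside SIRT3, a mitochondrial deacetylase, and 15.4 beside the proteasome gene PSMD13. The type IV collagen genes form 2 pairs. COL4A4/COL4A3 had a peak of 106 bp on 6 fragments with a fold of 5.95 over the TSS of COL4A4 only. COL4A1/COL4A2, 127 bp apart, had no peak, and the nearest one in the list lay 84379 bp away.

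**Figure D4:**
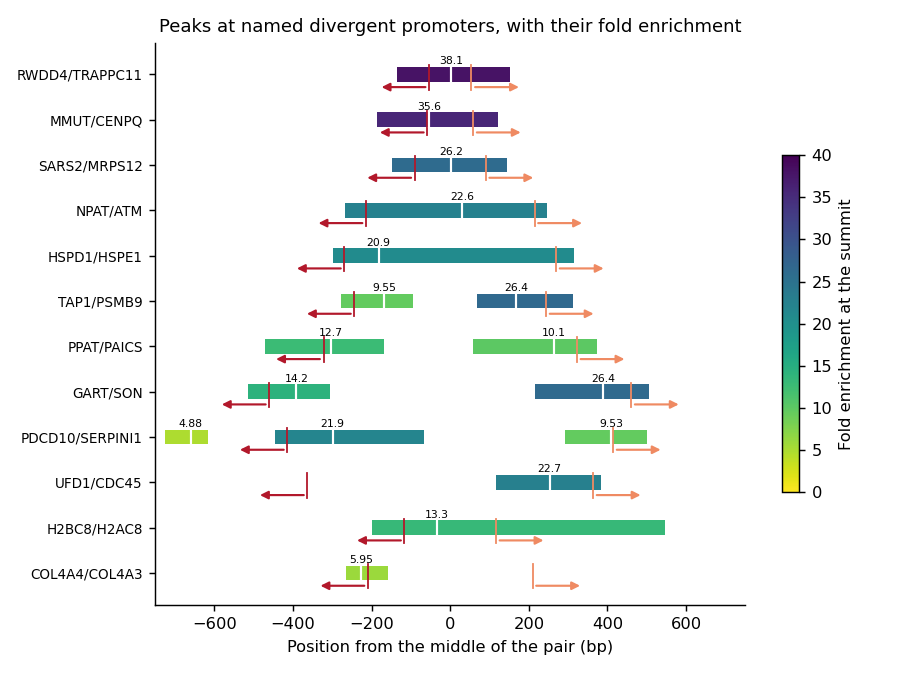
Peaks at 12 named pairs, placed from the middle of each pair (x axis, bp). Bars are peaks coloured by fold enrichment with its value above, white ticks summits, and arrows start at the TSS of the minus-strand gene (left) and the plus-strand gene (right); 1 peak spans both TSSs from RWDD4/TRAPPC11 to HSPD1/HSPE1, and the pairs from TAP1/PSMB9 to PDCD10/SERPINI1 have a peak at each TSS.

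Most of the pairs with the highest folds were less far apart than the median of 233 bp. Over the 918 pairs with a peak, distance and fold were only weakly related (Spearman rank correlation -0.104). Among pairs with a peak the median fold of the strongest peak was 19.96. It was highest at RWDD4/TRAPPC11 (38.1 over 112 fragments), where TRAPPC11 encodes a vesicle transport factor, at WBP11/C12orf60 (37.3), WBP11 being a splicing factor gene, and at TRMT6/MCM8 (36.7), a tRNA methyltransferase subunit and a DNA helicase of recombination. RAD1/BRIX1, a DNA damage checkpoint clamp gene and a ribosome biogenesis gene, had 36.6, and HIRIP3/INO80E, a histone chaperone and a chromatin remodelling subunit, 35.7. IQCB1/EAF2 had 34.9, ACOT8/ZSWIM3 34.8 and XRRA1/SPCS2 34.4. Except for HIRIP3/INO80E, whose TSSs are 624 bp apart, these are 108 to 222 bp apart, and 1 peak covered both TSSs.
The peak of TRMT6/MCM8 also counted for TRMT6 with an unnamed gene, ENSG00000286235, 416 bp apart, where it covered the TSS of TRMT6 only.
The lowest folds were those of POLR2L/TSPAN4 (4.51 on 21 fragments), TMEM203/NDOR1 (5.06), CCR10/CNTNAP1 (5.25), SGCE/PEG10 (5.25) and H2BC12/H2AC12 (5.56 on 7 fragments). PEG10 is an imprinted gene. The widest members were those of OARD1/NFYA (955 bp), SKA2/PRR11 (880 bp) and GLUD1/SHLD2 (811 bp), and each covered both TSSs. The closest pairs with a peak were ENSG00000286192/NUDT1 (11 bp), CIR1/SCRN3 (18 bp, fold 20.4) and MRM2/NUDT1 (21 bp); both NUDT1 pairs share 1 peak with a fold of 14.5.

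The head-to-head arrangement was frequent in some gene groups and almost absent from others. These counts come from the annotation alone, and the background is the 9.64% of all genes that are paired. Of 96 DNA repair genes, 33 (34.4%) were paired, as were 26 of 78 mitochondrial ribosome genes (33.3%), 30 of 107 genes of oxidative phosphorylation (28.04%), 24 of 97 chaperone genes (24.7%), 21 of 93 genes of DNA replication and the cell cycle (22.6%) and 8 of 35 aminoacyl-tRNA synthetase genes (22.9%). For the cytosolic ribosome it was 13 of 80 (16.3%), for the proteasome 7 of 47 (14.9%), for nucleotide synthesis 5 of 40 (12.5%) and for zinc finger genes 37 of 542 (6.83%). None of 101 genes for plasma proteins and hepatocyte enzymes and none of 38 neuronal genes was paired, and 1 of 32 liver transcription factor genes, 2 of 41 blood cell genes and 1 of 36 muscle genes were.

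In the groups above that held pairs, most pairs had a peak, beside 95.9% of all pairs. Most single genes had a peak too, except in the neuronal, blood cell and muscle groups. There a peak lay at 5 of 38 single TSSs for neuronal genes, 1 of 37 for blood cell genes and 3 of 35 for muscle genes. It lay at 62 of 98 for plasma proteins and hepatocyte enzymes and at 27 of 30 for liver transcription factors. A peak lay at 96.7% of the single TSSs of DNA repair genes, 95.8% for replication and the cell cycle, 49 of 49 for the mitochondrial ribosome, 88.2% for oxidative phosphorylation, 93.8% for the cytosolic ribosome, 89.2% for the proteasome, 96.2% for synthetases and 96.9% for nucleotide synthesis. For DNA repair it was 34 of 34 pairs, with a median fold of 24.2, above the 19.96 of all pairs. Examples are MRE11/ANKRD49 (31.9), MRE11 being a nuclease of DNA break repair, CERT1/POLK (31.1), with a translesion polymerase, and ERCC8/NDUFAF2 (30.6), which joins a gene of transcription-coupled repair to an assembly factor of respiratory complex I. Replication and cell cycle genes had a peak at 22 of 22 pairs, with a median fold of 24.0, among them SMYD4/RPA1 (27.1), RPA1 being the single-stranded DNA-binding protein of replication. The mitochondrial ribosome had a peak at 27 of 27 pairs (median fold 21.2), among them MRPL50/ZNF189 (32.3), PSMA2/MRPL32 (31.1) and MRPL10/LRRC46 (30.8).
Oxidative phosphorylation had a peak at 30 of 30 (median 20.8), led by NDUFA2/IK (33.2), CEBPZ/NDUFAF7 (31.9) and MRPL47/NDUFB5 (30.1). Aminoacyl-tRNA synthetases had a peak at 7 of 7 (median 26.2), among them HARS1/HARS2, the cytosolic and mitochondrial histidyl-tRNA synthetases, which share a peak with a fold of 26.8. The cytosolic ribosome had 14 of 14 with a lower median fold of 19.1, led by NKIRAS1/RPL15 (26.4) and CLHC1/RPS27A (23.8), and the proteasome 8 of 8 (median 21.0). In nucleotide synthesis it was 4 of 4, led by TK1/AFMID (26.9), TK1 being thymidine kinase.

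For chaperones (91.3%) and zinc finger genes (93.5%) the share of pairs with a peak was near the 95.9% of all pairs. At their single TSSs the shares were 83.1% and 76.4%, beside 54.4% of all single TSSs. Chaperones had a peak at 21 of 23 pairs, led by DCDC1/DNAJC24 (29.5), THAP5/DNAJB9 (27.8), CDNF/HSPA14 (26.5) and VIPAS39/AHSA1 (26.2). The small heat shock genes CRYAB/HSPB2 and the same pair as counted with the readthrough gene HSPB2-C11orf52 had none, with the nearest peak at 5735 and 5733 bp. Zinc finger genes had a peak at 29 of 31, led by ZNF142/BCS1L (33.2) and ZNF214/NLRP14 (32.1), and SCGB2B2/ZNF302 and TIGD7/ZNF75A had none. The lone pair with a liver transcription factor, FOXA1/TTC6, 380 bp apart, had a peak of 739 bp over both TSSs with a fold of 10.9 over 84 fragments. ZDHHC24/ACTN3, counted for the muscle gene ACTN3, had a fold of 25.6 over the TSS of ZDHHC24 only, a palmitoyltransferase gene, and TAP1/PSMB9 was the pair counted for blood cell genes.

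The histone pairs stood apart from the others in these values. Replication-dependent histones, which package newly made DNA, lie in clusters, and 26 of 69 of these genes (37.7%) were paired. The paired ones stood in 14 pairs, 12 with a peak (85.7%), beside 95.9% of all pairs. Of the 43 single genes of this group, 23 (53.5%) had a peak, beside 54.4% of all single TSSs. Among the 14 pairs, 12 join an H2A and an H2B gene at 194 to 251 bp. A peak was present at 10 of these 12. Its fold ranged from 5.56 to 18.9, with a median of 11.1, against 24.0 for the 106 other pairs with a peak in the same range of distance, and its median width was 436 bp against 351 bp. The highest folds were at H2AC15/H2BC15 (18.9), H2AC17/H2BC17 (15.7 over a peak of 563 bp), H2BC8/H2AC8 (13.3 over 746 bp) and H2BC4/H2AC6 (12.5). H2AC1/H2BC1 and H2AC25/H2BC26 had no peak. The GC content of the 12 pairs had a median of 49.5%, against 64.3% for the other pairs with a peak.
The sequence printed above differs likewise. An NFY word stood in the span of 12 of the 12 pairs, against 35.6% of all 955 spans of at least 20 bp, and the TATA box word in 9 of 12, against 4.50% of all spans. No SP/KLF, ETS or NRF1 word stood in any of the 12. H2AC1/H2BC1 held 1 NFY and 2 TATA words and no peak, so the words and a peak did not always go together.

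The 39 pairs without a peak were mixed. Their GC content had a median of 61.9% (quartiles 54.6 and 66.5%), against 64.1% for pairs with a peak, and 11 of them (28.2%) lay below 55% GC, against 10.8%. The median distance from the region to the nearest peak was 14116 bp, and 2 pairs had one within 1000 bp. Those of lowest GC content were the olfactory receptor pair OR11A1/OR2H1 (36.1%), PLCZ1/CAPZA3 (43.1%), which are genes of sperm, TSPAN19/LRRIQ1 (45.5%), COG4/SF3B3 (49.5%) and H2AC1/H2BC1 (49.9%). Those of highest GC content were TRPM5/KCNQ1 (79.8%), COL4A1/COL4A2 (78.0%), DUSP15/TTLL9 (77.8%), TMEM176B/TMEM176A (75.4%) and PNMA2/DPYSL2 (74.3%).
SF3B3 encodes a core splicing factor, and the nearest peak to COG4/SF3B3 lay 52156 bp away, while that to DCLRE1A/NHLRC2 lay 86300 bp away. Whether the list analysed here is whole around these pairs is not known, so their lack of a peak holds for this list only. For 5 of the 39, the middle 50 bp of the pair occur more than once in hg38. They are SRGAP2B/FAM72D, NLRP7/NLRP2 and the related pairs BOLA2/SLX1B, BOLA2-SMG1P6/SLX1B and BOLA2B/SLX1A. Copies were not counted for pairs with a peak, so no share over all pairs can stand beside this. Whether fragments from these places could be placed uniquely was not measured, and the part of the copies in the lack of a peak was not tested.

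Peaks at divergent promoters were somewhat wider and rested on more fragments than those at all single TSSs. The 1065 members had a median width of 290 bp (interval 281 to 297 bp), against 267 bp (interval 264 to 269 bp) for 9539 peaks at single TSSs, and the medians of summit fragments were 50 (interval 47 to 52) and 41 (interval 41 to 42). Peaks at single TSSs head to head with a lncRNA TSS were like the members, with medians of 291 bp (interval 282 to 300 bp), 48 fragments (interval 46 to 49) and a fold of 18.05 (interval 17.6 to 18.5). The median folds of members and of all peaks at single TSSs were close, 18.1 (interval 17.5 to 18.8) and 17.1 (interval 16.9 to 17.3). Peaks resting on at most 10 fragments made up 1.03% of the members and 4.46% of the peaks at single TSSs. The region of a pair was longer than that of a single TSS and could hold more peaks, so picking the strongest can raise the values of pairs. With the strongest peak of each region alone, the medians were 320 and 275 bp, 57 and 43 fragments, and a fold of 20.1 and 17.7. These differences kept their direction between 45 and 55% GC around the summit (262 and 234 bp, fold 18.6 and 17.1), between 55 and 65% (316 and 271 bp, fold 21.3 and 19.9) and from 65% upwards (334 and 285 bp, fold 19.0 and 16.8). With all peaks of each region the median fold was lower at members than at single TSSs between 45 and 55% GC, 14.4 against 16.1.
Among pairs, the strongest peak was widest at a distance of over 300 to 500 bp, with a median of 387 bp, and narrower at 1 to 100 bp (262 bp) and at over 500 to 1000 bp (293 bp). Its median fold was highest at over 100 to 200 bp (22.02) and lowest at over 500 to 1000 bp (18.5).

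Short motif words were searched on both strands within 75 bp of each summit. The words were CCGGAAG for ETS factors, GCGCANGCG for NRF1, ACCAAT or GCCAAT for NFY, GGGGCGG for SP/KLF, AANATGGCG for YY1, TTTCCCGC or TTTGGCGC for E2F, TGACGTCA for CREB/ATF, CACGTG for USF/MYC, TCTCGCGAG for ZBTB33, ACTACAATT for ZNF143, AGGGGGCGC for CTCF, TATAAA for the TATA box, CAAAGTCCA for HNF4A, GTTAATNAT for HNF1, TGTTTAC for FOXA and TGANTCA for AP-1. No word contains another, but those of CTCF and SP/KLF share letters. A match describes the sequence and does not show that a factor was bound.
The ETS word was more frequent at divergent promoters than at single TSSs. It stood at 21.4% of the member summits (interval 19.0 to 24.0%), at 13.8% of the summits at single TSSs (interval 13.1 to 14.5%), at 1.95% of those away from any protein-coding TSS and within 75 bp of 10.05% of all protein-coding TSSs. The NFY word stood at 25.5% (interval 22.9 to 28.3%), 21.8% (interval 20.9 to 22.6%), 9.89% and 12.4%, in the same order. In windows of 50 bp to either side the NFY intervals of members and single TSSs overlapped (17.7 to 22.6% and 17.01 to 18.6%), and those of ETS did not. E2F words stood at 3.00% of member and 1.69% of single-TSS summits, with separate intervals that overlapped for strongest peaks and in windows of 50 bp to either side, and at 1.39% of all TSSs. For NRF1 the shares of 12.96% and 11.63% had overlapping intervals, and 6.90% of all TSSs held the word. The same held for YY1 (4.23 and 3.03%, against 4.19% of all TSSs), CREB/ATF (3.19 and 2.705%, against 1.76%), USF/MYC (7.23 and 6.58%, against 4.52%), ZBTB33 (1.31 and 1.07%, against 0.549%) and ZNF143 (0.939 and 0.419%, against 0.115%). In windows of 150 bp to either side, the intervals for NRF1, YY1 and ZNF143 were separate, with higher shares at members.

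Words of other factors were rarer at divergent promoters. SP/KLF stood at 37.6% of member summits (interval 34.6 to 40.6%) and 44.2% of those at single TSSs (interval 43.2 to 45.2%), with 30.3% for all TSSs. For CTCF it was 1.22 and 2.76%, with 1.16% for all TSSs. GC content of these windows had a median of 66.9% at members and 70.2% at single TSSs, and its part in these shares was not tested. The TATA word stood at 1.41% of member and 1.80% of single-TSS summits, with overlapping intervals, and at 5.95% of all TSSs. The windows of all TSSs are centred on the TSS and include TSSs without a peak, so they are unlike the windows at summits.
Words of liver factors were rare at both kinds of promoter. At single TSSs HNF4A stood at 0.273%, HNF1 at 0.210% and FOXA at 1.12% of the summits. HNF4A was found at 0 of 1065 member summits, for which a floor of 3 counts allows a share of up to 0.282% and the exact interval one of up to 0.346%, HNF1 at 0.0939% and FOXA at 0.751%. At peaks away from coding TSSs these stood at 2.09%, 1.45% and 7.48%, and 0.178%, 0.235% and 0.968% of all TSSs held them. AP-1 stood at 1.31% of member and 1.65% of single-TSS summits, with overlapping intervals. Its share was 9.03% at peaks away from coding TSSs and 2.29% at all TSSs. The windows at peaks away from coding TSSs had a median GC content of 51.7%, against 66.9% at members. The part of GC content in these shares was not tested either.

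**Figure D5:**
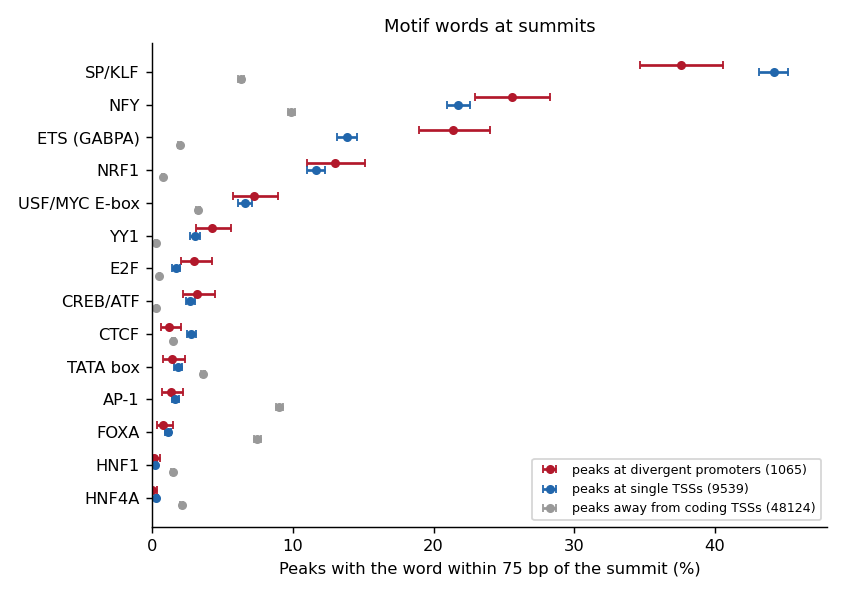
Share of peaks with a motif word within 75 bp of the summit (x axis, %) for 14 motifs (y axis), at divergent promoters, at single TSSs and away from protein-coding TSSs (number of peaks in brackets). Points are shares and bars exact 95% intervals; ETS is at 21.4% against 13.8% at single TSSs, SP/KLF at 37.6% against 44.2%.

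Strongest peaks with an NFY word at the summit had a higher fold than those without it. At divergent promoters the median fold was 22.4 with the word (239 peaks, interval 21.6 to 23.1) and 19.1 without it (610 peaks, interval 18.5 to 19.7), and the median widths were 352 and 299 bp. At single TSSs the folds were 21.2 and 16.8. For the ETS word the medians at divergent promoters were 20.39 and 19.98, with overlapping intervals, while at single TSSs they were 20.02 and 17.31, with separate ones. With an NRF1 word the median fold at divergent promoters was 18.0, against 20.4 without it, and the intervals of 16.8 to 19.8 and 19.7 to 20.9 overlapped slightly. No test of a difference between both kinds of promoter was made.
Within spans of at least 100 bp, NFY words stood a median of 75 bp from the nearer TSS (quartiles 51.0 and 121 bp), ETS words 44.5 bp (quartiles 19.5 and 88.5 bp) and TATA words 30.0 bp (quartiles 28 and 197 bp), in spans with a median length of 358, 302 and 446 bp for the words of each kind. These places were not compared with chance.

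Pairs just inside and just outside the limit of 1000 bp were as follows. Among the most distant pairs inside it with a peak were ATP6V1G2/NFKBIL1 (1000 bp, folds 13.8 and 17.2), HNRNPA2B1/CBX3 (999 bp, folds 15.3 and 9.18) and SMIM7/TMEM38A (995 bp, highest fold 20.8, beside SMIM7). The nearest outside it were ABHD14B with the readthrough gene ABHD14A-ACY1 (1011 bp) and with ABHD14A (1015 bp), which share a highest fold of 15.98. Of the 113 pairs over 1000 and up to 2000 bp apart, 104 had a peak (92.04%, interval 85.4 to 96.3%).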

How the data were processed

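Bulk ATAC-seq of 8 HepG2 libraries was carried out by the study, and the peak list of 1 library, fixed with 0.1% FA and cryopreserved, was analysed. The authors' methods give trimming by cutadapt, alignment to GRCh38 by Bowtie2 and removal of PCR duplicates by samtools, and the labels list bcl2fastq, MACS2 and deepTools 3.5.5. The version of MACS2, and whether read ends were shifted to the Tn5 cut site, are not given in the sources used here; a shift would move summits and edges by a few bases. Peak names carry the word short for the alignment used, and a selection of short fragments would make the list describe a subset of the library. The deposited score is 10 times the -log10 q. The deposited fold enrichment is taken as the ratio of the summit to the local background after 1 is added to each. A low fold on few fragments therefore partly reflects depth. The deposited -log10 p-value and -log10 q belong to the summit, and the last value is the summit position. The deposited values were used only within this list.

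TSSs were those of GENCODE 44 canonical transcripts. Overlap of at least 1 base made a peak a member. Summit fragments were solved from fold and -log10 p under the formulas assumed for MACS2, and came out whole within 0.01 for 100% of the 60474 nuclear peaks. Shares carry exact Clopper-Pearson intervals, medians order-statistic intervals, both at 95%. With 1 library no test was made. Overlaps, pairs and fragments were tested on simulated data. The pairs, gene lists and motifs were chosen with earlier results of these data known. Genes named are known pairs, those of the 10 highest and 5 lowest folds, up to 4 of highest fold and 4 lacking a peak per list, those of extreme distance, width or, without a peak, GC content; COG4/SF3B3, DCLRE1A/NHLRC2 and copies were looked at after values were seen. Alternatives were other margins, summit or 50% overlap, -log10 q limits of 5, 10 and 20, other distances and TSS definitions, GC classes and motif windows. Python 3.11.15, pandas 2.3.3, scipy 1.17.1 and pysam 0.24.0 were used. The values of 1 known pair are not reported here.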

Additional observations from a re-analysis of the deposited data

How the results depend on the processing

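Of 96 recomputed values other than single motif shares, 37 stayed inside the interval, or within 1.5 times the count, of the value reported (for the difference between shares, within the summed half-widths of the 2 intervals in that GC class), and 59 moved. For those that moved by more than the alternative itself fixes, the cause was not tested. Member peaks numbered 898 to 1124. The share of pairs with a peak was 90.6% at a -log10 q of at least 20, 92.04% for TSSs over 1000 and up to 2000 bp apart and 92.8% with outermost coding TSSs. That of single TSSs was 55.2% with windows lengthened upstream by the median distance, 48.2, 52.3 and 55.6% with 0, 100 and 500 bp, 52.1% by summit, 51.3 and 44.1% at a -log10 q of 10 and 20, and 50.0% without any other gene TSS within 1000 bp. The difference between paired and single TSSs, 38.6 points, was 18.05 points below 45% GC, where 12 paired TSSs give wide intervals, 61.7 points from 45 to 55% GC and 22.03 points at 65% or more. Member medians became 298 bp and a fold of 18.9 with 0 bp added, 18.8 with 100 bp, 320 bp, 20.1 and 57 fragments for strongest peaks, 219 bp, 14.4 and 40 fragments from 45 to 55% GC, 19.8 and 53 fragments from 55 to 65%, and 299 bp and 17.4 at 65% or more. From 45 to 55% GC the fold of members was thus below that of single-TSS peaks (16.1), while for strongest peaks it was above. Single-TSS medians became 282 bp, 18.2 and 45 fragments with 0 bp, 276 bp, 17.7 and 44 with 100 bp, 259 bp, 16.5 and 40 with 500 bp, 17.5 by summit, 275 bp, 17.7 and 43 for strongest peaks, 177 bp, 11.2 and 20 below 45% GC, 225 bp, 16.1 and 35 from 45 to 55%, 263 bp, 19.2 and 46 from 55 to 65%, and 277 bp, 16.2 and 40 at 65% or more. Member summits lay between the TSSs in 72.6% at up to 300 bp, 84.2% over 300 bp and 83.3% for strongest peaks. One peak over both TSSs was found in 98.3, 93.5, 77.0, 46.6 and 11.8% of the pairs in the 5 classes of distance. The same 9 of 16 motifs had higher shares at members with 50 or 150 bp windows and with strongest peaks, but intervals became overlapping for NFY with 50 bp and for E2F with 50 bp and with strongest peaks. No paired analysis was possible because 1 library was analysed.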

Other observations

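Most summits at divergent promoters held at least 1 of the words of 7 factors common at CpG-rich promoters (NRF1, ETS, NFY, SP/KLF, YY1, CREB/ATF and USF/MYC). At the strongest peaks of pairs, 20.5% (interval 17.8 to 23.4%) held none of these words within 75 bp of the summit, against 25.9% (interval 25.0 to 26.9%) at single TSSs. The median fold was 18.7 without a word and 21.9 with words of 3 or more of the factors at divergent promoters, and 15.4 and 19.9 at single TSSs. Of the 955 spans of at least 20 bp, 53.4% held an SP/KLF word, 35.6% an NFY word, 31.3% an ETS word and 19.7% an NRF1 word.

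Of the 39 pairs without a peak, 4 more are given here, chosen after their values were seen, with no count of such genes over the 39. They are DUOX2/DUOXA2 and DUOXA1/DUOX1, which encode the peroxide-producing oxidases of the thyroid and their maturation factors, FOXL2/FOXL2NB, FOXL2 being an ovarian transcription factor, and GNGT2/ABI3. The nearest peaks lay 3537 bp from the region of DUOX2/DUOXA2, 1303 bp from that of DUOXA1/DUOX1, 10365 bp from that of FOXL2/FOXL2NB and 12555 bp from that of GNGT2/ABI3. GC content at the first 3 of these pairs was 58.5, 72.7 and 69.5%.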
